A study of Homo sapiens with 6 samples.

Results

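The 10 genes described here belong to bone morphogenetic protein (BMP) signalling and to the inhibitor of DNA binding (ID) family, and they were followed in SK-N-BE cells depleted of the long noncoding RNA CyCoNP. They were chosen by name, with earlier results of these data known. The set held the ligand BMP7, the receptors BMPR1A and BMPR2 and the decoy receptor BAMBI. It also held the inhibitory SMADs SMAD6 and SMAD7 and the ID genes ID1, ID2, ID3 and ID4. All 10 were among the 60676 genes listed, and 9 of the 10 were among the 13966 genes with a mean of at least 1 FPKM (counted fragments divided by gene length and by library total) in either group. SK-N-BE is a human neuroblastoma cell line that takes on neuronal traits with retinoic acid, and all 6 libraries came from this 1 line after 1.5 days in a differentiation medium with 10 μM retinoic acid. The cells carried either a scrambled siRNA (si-SCR, 3 libraries) or pooled siRNAs directed at exon 2 of CyCoNP (si-CyCoNP, 3 libraries), so that both groups had been transfected and had received retinoic acid, and no library without either was analysed here. Nothing in the labels says that the 3 libraries of a group came from separate cultures, and p-values then measure only the spread between these libraries.

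BMP ligands bind a pair of type I and type II serine/threonine kinase receptors, and the type II receptor switches on the type I receptor, which phosphorylates SMAD1, SMAD5 and SMAD9. These join SMAD4 and enter the nucleus, where the ID genes are among the best known direct targets, together with SMAD6, SMAD7 and BAMBI, which feed back to dampen the pathway. ID proteins bind the E proteins, the common partners of proneural basic helix-loop-helix (bHLH) factors, and keep them off DNA, and in the neural lineage they are known to hold progenitors back from differentiation.

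CyCoNP depletion was accompanied by changes in opposite directions within this set. These libraries compare a single siRNA pool with a scrambled control. Effects of losing CyCoNP and other effects of the siRNAs therefore cannot be told apart here. BMPR2 fell to 37.3% of its si-SCR level and BMP7 to 40.7%, whereas ID1 rose 1.74-fold, ID3 1.58-fold and BAMBI 1.42-fold. ID2, SMAD7 and BMPR1A did not pass the test, SMAD6 passed it only under some of the alternatives given below, and ID4 was too low to test. Of the 9 genes tested, 3 were higher under si-CyCoNP at an adjusted p under 0.05 beside 14.2% of all genes tested, and 2 were lower beside another 14.2% (edgeR quasi-likelihood test, Benjamini-Hochberg adjustment over all genes tested). Both lower genes also had a log2 fold change below -1, as had 2.98% of all genes tested, and none of the higher genes had one above 1, as had 2.28%. The si-SCR and si-CyCoNP libraries did not overlap in FPKM for 5 of the 9, beside 40.3% of all genes tested. The median log2 fold change was -0.01 over the 9 and 0.01 over all genes tested. BMP7 entered the test through its si-SCR mean only, so that the 9 are not a full account of the set. The genes were also chosen with earlier results of these data known, so that these shares are only a description.

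The targeted transcript showed that the libraries matched their labels. LINC02381, the gene of CyCoNP, was at 14.9, 12.9 and 15.4 FPKM under si-SCR and at 0.973, 1.65 and 0.676 FPKM under si-CyCoNP, a log2 fold change of -3.78 (SE 0.190, edgeR adjusted p = 6.84e-14). Total counts were between 3762009 and 4799407 in all 6 libraries, with no library of either group apart from the others in depth. The neuroblastoma label was met, since all 10 adrenergic markers passed the expression filter, with summed levels of 2160 to 2340 FPKM under si-SCR and 1880 to 2020 FPKM under si-CyCoNP. Of these 10, 6 (60%) were lower under si-CyCoNP, among them GATA2, HAND2 and PHOX2A, and 2 (20%) were higher, MYCN and TFAP2B. Over all genes tested the share was 14.2% in each direction. Of 11 mesenchymal markers 7 were tested, with FN1 and FOSL1 higher, SNAI2, FOSL2 and VIM lower, and summed levels of 116 to 142 FPKM under si-SCR and 109 to 114 FPKM under si-CyCoNP. Of 14 markers of other cell types, 4 were tested, and their whole list summed to 5.18 to 7.97 FPKM under si-SCR and 14.0 to 20.5 FPKM under si-CyCoNP. Of those tested, the collagen genes COL1A1 and COL3A1 were higher and DCN was lower. COL1A1 had means of 0.45 FPKM under si-SCR and 1.5 FPKM under si-CyCoNP, and COL3A1 had means of 0.148 and 1.07 FPKM. Most of the rise of the sum came from elsewhere in the list. FN1, FOSL1, COL1A1 and COL3A1 passed the filter through si-CyCoNP only, FOSL1 lost its call without si-CyCoNP replicate 2, and COL3A1, DCN and FOSL1 lost theirs with limma on FPKM. The endothelial marker PECAM1 and the hepatocyte marker ALB had no count in any library. The part of these marker changes in the results below was not tested, and in bulk RNA fewer cells of a kind and less RNA per cell cannot be told apart.

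Promoter stretches with letters that SMADs are known to bind are shown first, because several of the genes are themselves targets of the pathway. Promoters of 250 bases before to 50 bases after the gene start were given by RefSeq (GRCh38.p14) for 9 of the 10 genes, with BMP7 the one without. The 2 motifs searched were SMAD-binding elements, read on both strands, each being its own reverse complement and neither containing the other. One was the GC-rich element GGCGCC, present in 19.2% of 35116 promoters, and the other was the palindromic SMAD element GTCTAGAC, present in 0.202%. GGCGCC occurred once in the BMPR2 promoter and 3 times in the BAMBI promoter, and GTCTAGAC occurred once in the SMAD6 promoter. The matches are printed on the plus strand of the genome, which is the strand of all 3 genes, with the motif in capitals, and the distance counts from the first base of the motif to the RefSeq gene start. This start is base 28677521 for BAMBI, 11 bases downstream of the GENCODE start given for the gene below, and it is the GENCODE start for BMPR2 and SMAD6.
BMPR2, chr2:202376170-202376195, 147 bases upstream: tcccgccgccGGCGCCgccgccgccg
BAMBI, chr10:28677302-28677327, 209 bases upstream: gcaccagccgGGCGCCccagccgggc
BAMBI, chr10:28677315-28677340, 196 bases upstream: gccccagccgGGCGCCccagacgccg
BAMBI, chr10:28677330-28677355, 181 bases upstream: cccagacgccGGCGCCgctcggagcc
SMAD6, chr15:66702215-66702240, 12 bases upstream: cgccaaagtGTCTAGACtggcatatg
The 3 genes with a match differed in direction, as BMPR2 was lower under si-CyCoNP, BAMBI was higher and SMAD6 did not pass the test. The promoters of ID1, ID2, ID3, ID4, SMAD7 and BMPR1A held neither motif, which says only that these letters are not in this window.

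The study also examined miR-4492 in relation to CyCoNP, and its mature sequence is shown so that the genes can be read against it. It lies at chr11:118910765-118910781 on the plus strand (RefSeq, GRCh38.p14), and the capitals mark its seed, bases 2 to 8.
hsa-miR-4492: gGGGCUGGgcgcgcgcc
The letters that pair with the seed, CCAGCCC, or with its first 6 bases followed by an A, CAGCCCA, were searched on the sense strand of the longest annotated 3′ UTR of each gene (GENCODE, GRCh38), and the 2 overlap in CCAGCCCA. Among the tested protein-coding genes 3359 of 10486 (32.0%) held at least 1 such match, over a median 3′ UTR of 1585 bases. Of the 10 genes only SMAD7 held one, at base 698 of a 3′ UTR of 1519 bases on chromosome 18, minus strand, with the match in capitals.
SMAD7, chr18:48920662-48920682: ccttcctgCCAGCCCctgcca
BMPR2 had the longest 3′ UTR of the 10, of 8049 bases, and BMP7 had one of 2206 bases, and neither held a match. SMAD7, which had one, did not pass the test between the groups, and no match says only that these letters are not in the UTR searched.

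The ligand came first in the order of the pathway. BMP7 (ENSG00000101144; chromosome 20, 57168753 to 57266641, minus strand), a secreted ligand with roles in kidney, eye and nervous system development, was at 1.67, 2.11 and 1.00 FPKM under si-SCR and at 0.807, 0.781 and 0.400 FPKM under si-CyCoNP. All 3 si-CyCoNP libraries were below all 3 si-SCR libraries, although the highest si-CyCoNP value was close to the lowest si-SCR value. The gene rested on 39, 43 and 26 counts under si-SCR and 21, 18 and 9 counts under si-CyCoNP. Its log2 fold change was -1.30 with a 95% interval from -1.98 to -0.61 (SE 0.331, edgeR adjusted p = 0.00383), and on the scales of limma on log2(FPKM + 1) and log2(FPKM + 0.1) it did not pass (adjusted p = 0.123 and 0.104). Even so BMP7 was the only BMP ligand above the expression filter. It passed through si-SCR only, with a mean of 1.59 FPKM there and 0.662 FPKM under si-CyCoNP. Of 15 other ligands, BMP2 and BMP4 included, none was tested, 8 had no count in any library and the highest, BMP8B, was at 0.173 to 0.531 FPKM under si-SCR and at 0.0432 to 0.195 FPKM under si-CyCoNP.

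BMPR2 (ENSG00000204217; chromosome 2, 202376327 to 202567751, plus strand), the type II receptor that is dedicated to BMPs and is mutated in heritable pulmonary arterial hypertension, had the smallest p-value of the 9 tested genes. It was at 19.2, 16.8 and 16.9 FPKM under si-SCR and at 6.78, 7.28 and 6.67 FPKM under si-CyCoNP. The groups were far apart, with 1.09-fold between the highest and the lowest si-CyCoNP library and 1.14-fold between those of si-SCR. The counts behind these levels were 1032, 791 and 1013 under si-SCR and 407, 387 and 346 under si-CyCoNP, and the log2 fold change was -1.42 with a 95% interval from -1.61 to -1.23 (SE 0.0911, edgeR adjusted p = 5.83e-12). BMPR2 ranked 21 by p-value among the 13966 genes tested. Its log2 fold change was between -1.47 and -1.24 under all 15 alternatives and passed the threshold in each. A later gene model, ENSG00000289490, shares exon sequence with BMPR2 on the same strand in the GENCODE annotation, and since it is no gene of the count table reads from the shared stretch would be counted as BMPR2.

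The type I receptor BMPR1A (ENSG00000107779; chromosome 10, 86756596 to 86932825, plus strand), which is activated by BMPR2 or by the activin type II receptors, was at 4.96, 4.75 and 5.24 FPKM under si-SCR and at 5.81, 4.89 and 5.56 FPKM under si-CyCoNP. The 2 groups overlapped. BMPR1A had a log2 fold change of 0.05 and a 95% interval from -0.17 to 0.28 (adjusted p = 0.761, edgeR), an interval that leaves out a change of the size seen in BMPR2.

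The proportion of the receptors to each other differed between the groups. The FPKM of BMPR2 was 3.87, 3.54 and 3.23 times that of BMPR1A in the si-SCR libraries and 1.17, 1.49 and 1.20 times in the si-CyCoNP libraries. BMPR2 supplied 71.1, 69.4 and 66.2% of the summed FPKM of the type II receptors BMPR2, ACVR2A and ACVR2B under si-SCR, and 39.4, 40.4 and 44.7% under si-CyCoNP. Neither ratio overlapped between the groups, in a design where an exact two-sided permutation test of 3 against 3 libraries cannot give a p below 0.1. The sum of the 3 type II receptors was also lower, at 25.6 ± 1.39 FPKM under si-SCR and 16.7 ± 1.6 FPKM under si-CyCoNP (SD, n = 3 each). ACVR2B, a type II receptor shared with activins, was higher under si-CyCoNP, with 5.43 to 6.55 FPKM against 6.99 to 8.69 FPKM and a log2 fold change of 0.35 (adjusted p = 0.00774, edgeR), a call lost without si-CyCoNP replicate 2. ACVR2A had a log2 fold change of -0.16 and did not pass the test (adjusted p = 0.617).

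The other 3 type I receptors were lower under si-CyCoNP. Besides BMPR1A and BMPR2, 11 receptors and co-receptors were listed and 7 tested. Of these 7, 3 (42.9%) were lower and 1 (14.3%) was higher, beside 14.2% of all genes tested in each direction. BMPR1B, the close relative of BMPR1A, had a log2 fold change of -0.40 (adjusted p = 0.00936, edgeR), a call lost without si-SCR replicate 1, and ACVR1, a type I receptor for BMP6 and BMP7 among other ligands, had one of -0.49 (adjusted p = 0.0412) and lost its call under 9 of 15 alternatives. ACVRL1, the type I receptor best known from endothelium, was at 1.08, 3.11 and 1.73 FPKM under si-SCR and at 0.378, 0.949 and 0.583 FPKM under si-CyCoNP, a log2 fold change of -1.68 (adjusted p = 0.000908), and it passed the filter through si-SCR only. The 4 type I receptors summed to 22.6 ± 1.53 FPKM under si-SCR and 18.3 ± 1.04 FPKM under si-CyCoNP (SD, n = 3 each), without overlap between the groups.

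**Figure D1:**
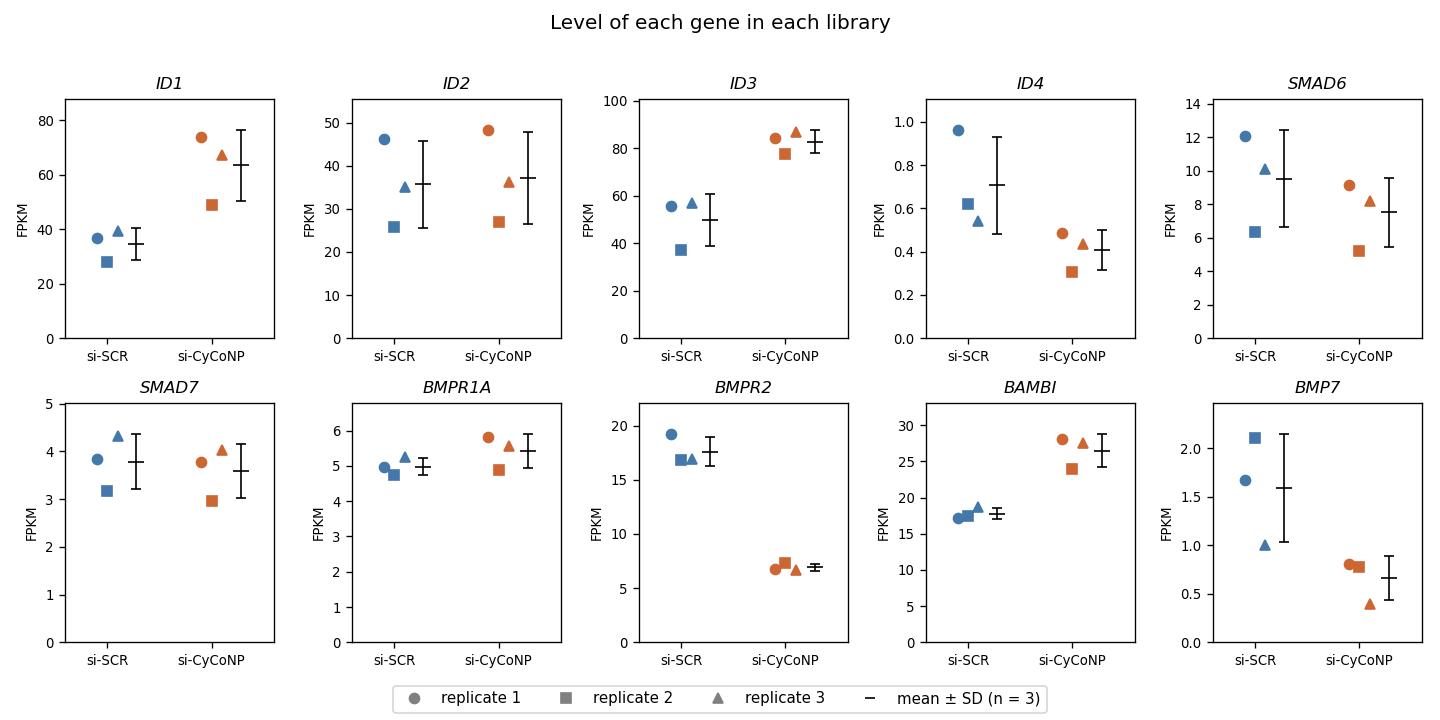
FPKM of each of the 10 genes (y axes start at 0 and differ between panels) in the 3 si-SCR and the 3 si-CyCoNP libraries, with 1 symbol per replicate number and the mean ± SD beside them. BMPR2 falls from between 16.8 and 19.2 to between 6.67 and 7.28 FPKM, ID1, ID3 and BAMBI are higher in each si-CyCoNP library than in any si-SCR library, and ID2, SMAD6, SMAD7 and BMPR1A overlap.

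BAMBI (ENSG00000095739; chromosome 10, 28677510 to 28682932, plus strand), a membrane protein that resembles a type I receptor without the kinase and dampens BMP and TGF-β signalling, was higher under si-CyCoNP. It was at 17.2, 17.5 and 18.7 FPKM under si-SCR and at 28.1, 23.9 and 27.5 FPKM under si-CyCoNP. Every si-CyCoNP library was above every si-SCR library. BAMBI had a log2 fold change of 0.51 and a 95% interval from 0.27 to 0.75 (SE 0.116, edgeR adjusted p = 0.00147), and it passed the threshold in all 15 alternatives.

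Neither of the inhibitory SMADs passed the test. SMAD6 (ENSG00000137834; chromosome 15, 66702236 to 66782849, plus strand), which blocks mainly the BMP arm, was at 12.1, 6.37 and 10.1 FPKM under si-SCR and at 9.16, 5.23 and 8.18 FPKM under si-CyCoNP. In both groups replicate 2 was the lowest and replicate 1 the highest, and the groups overlapped. SMAD6 had a log2 fold change of -0.41 and a 95% interval from -0.76 to -0.06 (SE 0.170, unadjusted p = 0.0225), and it did not pass after adjustment (adjusted p = 0.0718, edgeR). It passed the threshold in 6 of 15 alternatives, with values from -0.62 to -0.19 and adjusted p-values from 0.00028 to 0.493, and the highest of these was that of DESeq2. Its call depended on the libraries and on the fit. It passed when si-SCR replicate 2 (-0.62) or 3 (-0.39) or si-CyCoNP replicate 1 (-0.58) or 3 (-0.48) was left out. With every library kept, SMAD6 passed in edgeR with a replicate block (-0.40, adjusted p = 0.00028) and without a filter on low counts (-0.41, adjusted p = 0.00249). SMAD7 (ENSG00000101665; chromosome 18, 48919853 to 48950965, minus strand), which blocks both the BMP and the TGF-β arm, was at 3.84, 3.17 and 4.32 FPKM under si-SCR and at 3.77, 2.95 and 4.03 FPKM under si-CyCoNP. The groups overlapped, and the log2 fold change was -0.15 with a 95% interval from -0.51 to 0.21 (adjusted p = 0.574, edgeR).

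ID1 (ENSG00000125968; chromosome 20, 31605283 to 31606515, plus strand), a canonical immediate target of BMP receptors, was at 36.8, 28.0 and 39.2 FPKM under si-SCR and at 74.0, 48.9 and 67.3 FPKM under si-CyCoNP. The lowest si-CyCoNP library, replicate 2, was still above the highest si-SCR library. The log2 fold change of ID1 was 0.80 with a 95% interval from 0.52 to 1.08 (SE 0.138, edgeR adjusted p = 5.78e-05), and under the 15 alternatives it was between 0.67 and 0.96 and passed in each.

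ID3 (ENSG00000117318; chromosome 1, 23557926 to 23559501, minus strand), often induced together with ID1, was at 55.7, 37.0 and 56.7 FPKM under si-SCR and at 84.3, 77.4 and 86.7 FPKM under si-CyCoNP. It was the highest of the 4 ID genes in both groups by mean FPKM, with 49.8 ± 11.1 under si-SCR and 82.8 ± 4.84 under si-CyCoNP (SD, n = 3 each), and the groups did not overlap. The log2 fold change of ID3 was 0.66 with a 95% interval from 0.42 to 0.90 (SE 0.116, edgeR adjusted p = 7.90e-05), and it passed in all 15 alternatives.

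ID2 (ENSG00000115738; chromosome 2, 8678845 to 8684461, plus strand), which responds to BMPs and also to MYC proteins and can bind the retinoblastoma protein, did not pass the test. It was at 46.1, 25.8 and 35.1 FPKM under si-SCR and at 48.3, 26.9 and 36.2 FPKM under si-CyCoNP. The values of the 2 groups lay almost on top of each other, replicate number by replicate number, while within each group the highest library was 1.78 and 1.80 times the lowest. Accordingly, ID2 had a log2 fold change of -0.01 and a 95% interval from -0.35 to 0.33 (SE 0.164, edgeR adjusted p = 0.973), whose upper end lies below the lower ends of the intervals of ID1 and ID3, although the difference between the genes was not tested itself. Its sign turned with the scaling and with the libraries left out, and no alternative put it past the threshold. The antisense gene ID2-AS1 overlaps ID2 on the opposite strand, and the libraries were made with a stranded kit.

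ID4 (ENSG00000172201; chromosome 6, 19837370 to 19842197, plus strand), known from neural progenitors and oligodendrocyte precursors, was at 0.962, 0.618 and 0.540 FPKM under si-SCR and at 0.484, 0.304 and 0.436 FPKM under si-CyCoNP. It rested on 16, 9 and 10 counts under si-SCR and on 9, 5 and 7 counts under si-CyCoNP, and it was below the expression filter. Although the groups did not overlap, the fit without a filter gave a log2 fold change of -0.83 and an adjusted p of 0.334 (edgeR), so that a difference was not detectable at this depth.

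The makeup of the ID pool differed accordingly. Summed over the 4 genes, ID expression was 140, 91.4 and 132 FPKM under si-SCR and 207, 153 and 191 FPKM under si-CyCoNP. The share of ID2 in this sum was 33, 28.2 and 26.7% under si-SCR and 23.3, 17.5 and 19.0% under si-CyCoNP, and the share of ID1 was 28.9% ± 2.26 and 34.3% ± 2.14 (SD, n = 3 each). Within each library ID1 was 0.799 to 1.11 times ID2 under si-SCR and 1.53 to 1.86 times ID2 under si-CyCoNP, without overlap. The ratio of ID1 to ID3, in contrast, overlapped between the groups, at 0.703 ± 0.05 and 0.762 ± 0.124 (SD, n = 3 each).

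**Figure D2:**
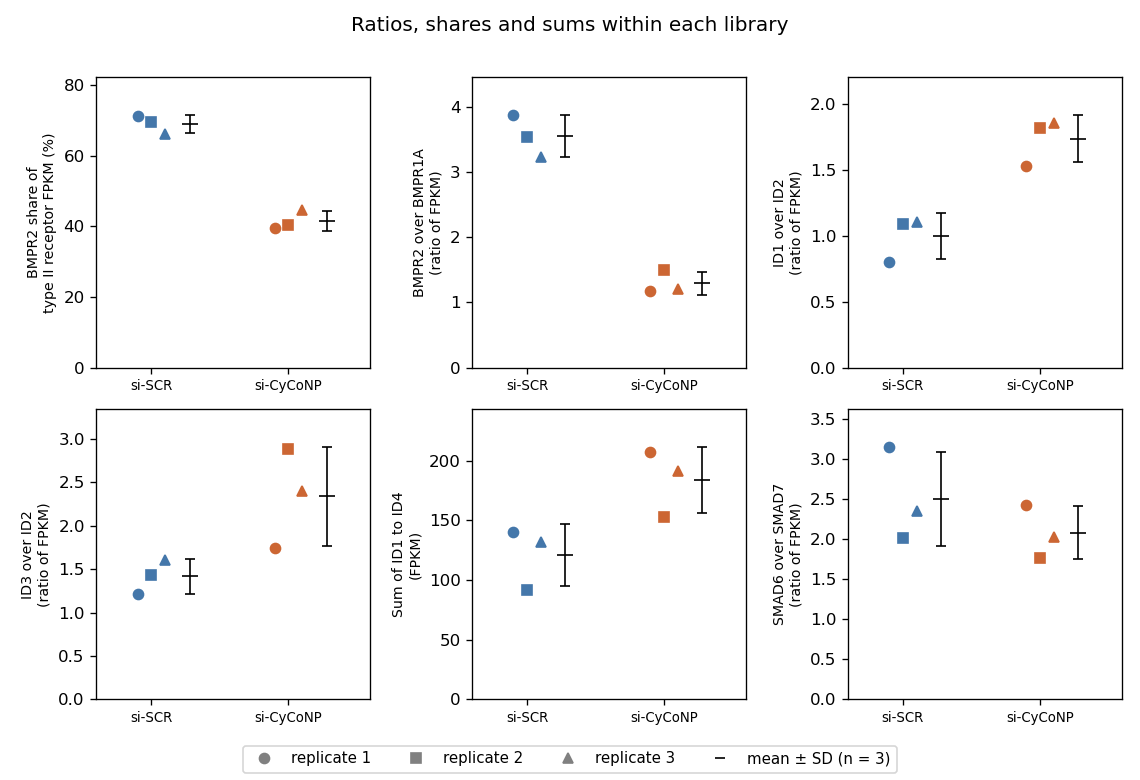
Shares, ratios and sums of FPKM computed within each library for si-SCR and si-CyCoNP (y axes start at 0), with 1 symbol per replicate number and the mean ± SD beside them. The BMPR2 share of type II receptor FPKM lies between 66.2 and 71.1% under si-SCR and between 39.4 and 44.7% under si-CyCoNP, the ratios of ID1 and of ID3 to ID2 are higher in each si-CyCoNP library, and the ratio of SMAD6 to SMAD7 overlaps.

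Several of the genes had their lowest library in the same replicate number in both groups. Replicate 2 was the lowest library in both groups for 6 of the 10 genes, ID1, ID2, ID3, SMAD6, SMAD7 and BMPR1A. Replicate 3 was the lowest in both groups for BMP7. How often this holds over all genes tested was not computed. BAMBI, BMPR1A and BMPR2 had the smallest spread under si-SCR, with the highest library 1.09, 1.10 and 1.14 times the lowest. The spread was widest for BMP7, at 2.10-fold under si-SCR and 2.02-fold under si-CyCoNP, followed by SMAD6 under si-SCR, at 1.90-fold, and ID2 under si-CyCoNP, at 1.80-fold. Replicate 2 of si-SCR was also the library with the lowest total count, which FPKM scales for. Under si-CyCoNP the lowest total was that of replicate 3, at 4146034 against 4249504 for replicate 2.

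The rest of the pathway was read from a list of 82 genes, of which 43 passed the expression filter, 3 of them through 1 group only. Of the 43, 7 (16.3%) were higher under si-CyCoNP and 13 (30.2%) were lower, against the 14.2% in each direction over all genes tested. The median log2 fold change of the 43 was -0.16. This list and the others here were drawn up with earlier results of these data known. Their shares are a description and not a test. Without si-CyCoNP replicate 2 only 4 were higher, and limma on the 2 FPKM scales gave 4 higher and 6 or 7 lower. Among the calls lost on both of these scales were those of BMPR1B, ACVR1, ACVRL1, ACVR2B, SMAD9, NBL1 and USP15.

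The SMADs of the BMP arm were lower or did not pass. SMAD1 was at 10.8, 8.77 and 12.2 FPKM under si-SCR and at 6.05, 6.90 and 6.36 FPKM under si-CyCoNP, a log2 fold change of -0.79 (SE 0.117, edgeR adjusted p = 7.19e-06), and the groups did not overlap. SMAD9 had a log2 fold change of -0.40 (adjusted p = 0.0110) with overlapping groups, and it lost its call without si-SCR replicate 1 or without si-CyCoNP replicate 2. SMAD5 was at 12.6 to 14.0 FPKM under si-SCR and at 12.9 to 14.5 FPKM under si-CyCoNP and did not pass (adjusted p = 0.736), and neither did SMAD4, the shared partner, with a log2 fold change of -0.19 (adjusted p = 0.197). SMAD3, of the TGF-β and activin arm, was higher, at 4.37, 4.36 and 4.06 FPKM under si-SCR and 9.96, 9.74 and 9.51 FPKM under si-CyCoNP, with a log2 fold change of 1.13 (SE 0.105, adjusted p = 4.71e-09). Of the 10 genes tested among 18 of that arm 2 (20%) were higher, SMAD3 and the ligand GDF11 (log2 fold change 0.62). Another 2 (20%) were lower, the type I receptor ACVR1B (-0.57) and SMAD2 (-0.29). The share of all genes tested was 14.2% in each direction. The call of SMAD2 was lost with library totals, without si-CyCoNP replicate 2 and on the 2 FPKM scales.

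Secreted antagonists and modulators were mostly too low to test, with 5 of 20 above the filter. NBL1, a BMP antagonist of the DAN family, had a log2 fold change of 0.80 (adjusted p = 0.00746, edgeR), a call lost without si-CyCoNP replicate 2. TWSG1, which modulates the binding of BMPs by chordin, was lower, with a log2 fold change of -0.82 (adjusted p = 0.000927). Noggin (NOG) had no count in any library.

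Among 17 intracellular regulators, all tested, 3 (17.6%) were higher and 3 (17.6%) were lower, near the 14.2% of all genes tested in each direction. ZNF423, a zinc finger cofactor of SMADs in BMP responses, had a log2 fold change of 0.77 (adjusted p = 0.000259, edgeR), and the SMAD corepressor SKI had one of 0.48 (adjusted p = 0.00226). The ubiquitin ligase SMURF2 was lower with a log2 fold change of -0.52 (adjusted p = 0.000761), as was the deubiquitinase USP15 with one of -0.36 (adjusted p = 0.00417). The remaining 11 did not pass.

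Further genes that BMPs are known to induce in other settings differed in direction among themselves. Of 15 listed, 10 were tested, 1 (10%) was higher and 4 (40%) were lower, beside 14.2% of all genes tested in each direction. HEY1, a bHLH repressor that Notch also induces, was at 21.5 to 27.3 FPKM under si-SCR and 46.0 to 46.7 FPKM under si-CyCoNP, a log2 fold change of 0.85 (adjusted p = 6.44e-08, edgeR). HES1, a related repressor and Notch target, had a log2 fold change of -1.13 (adjusted p = 0.000148), and the homeobox gene MSX2 had one of -1.23 (adjusted p = 0.000643). GATA2, which is also one of the adrenergic markers, was at 316 to 359 FPKM under si-SCR and 166 to 183 FPKM under si-CyCoNP, with a log2 fold change of -1.06 (adjusted p = 9.24e-11). GATA3 was lower with overlapping groups (adjusted p = 0.0317, edgeR), and its call was lost with limma on log2(FPKM + 1). Its results under the other alternatives are not given here.

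The E proteins that ID proteins bind also changed. TCF3, which encodes E12 and E47, was at 14.7, 18.3 and 19.4 FPKM under si-SCR and at 32.0, 34.8 and 31.4 FPKM under si-CyCoNP, a log2 fold change of 0.84 (SE 0.0938, edgeR adjusted p = 8.68e-08). TCF4 and TCF12 were lower, with log2 fold changes of -0.47 (adjusted p = 0.000479) and -0.37 (adjusted p = 0.00274), both lost on the 2 FPKM scales. Summed over the 3 genes, E protein expression was 61.0 ± 4.11 FPKM under si-SCR and 67.2 ± 3.05 FPKM under si-CyCoNP (SD, n = 3 each). The ratio of the ID sum to the E protein sum overlapped between the groups, at 1.42 to 2.33 under si-SCR and 2.17 to 3.16 under si-CyCoNP. Of 19 bHLH genes 7 were tested and 5 (71.4%) were lower. Among them were TCF4, TCF12, HAND2 (log2 fold change -0.61, adjusted p = 4.97e-07, edgeR) and HAND1, the last with overlapping groups. TCF3 alone (14.3%) was higher. The share of all genes tested was 14.2% in each direction.

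**Figure D3:**
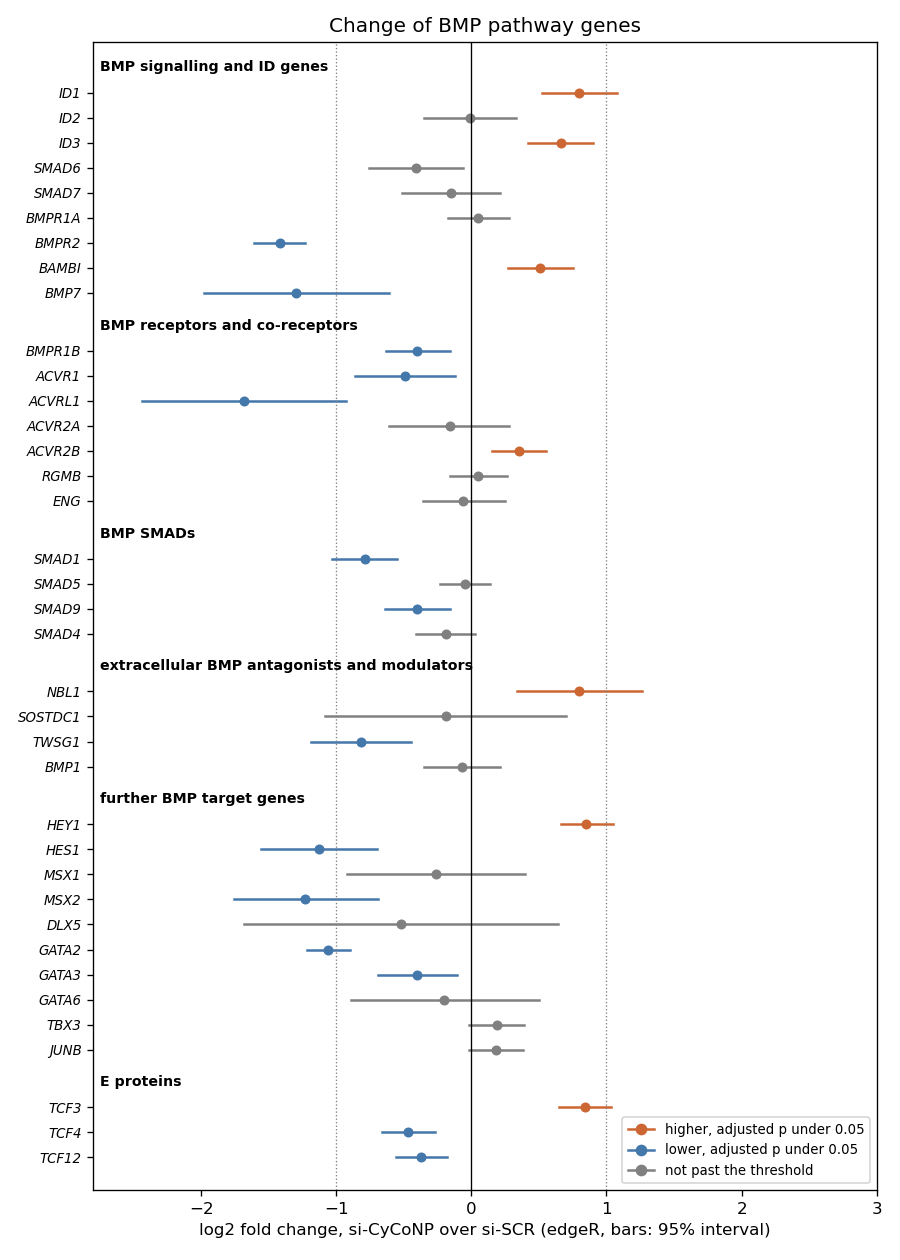
Log2 fold change of si-CyCoNP over si-SCR with its 95% interval (edgeR) for the 9 tested genes and for the tested receptors, SMADs, reported secreted modulators, further target genes and E proteins, coloured by direction where the adjusted p is under 0.05, with dotted lines at -1 and 1. BMPR2 lies at -1.42 and SMAD1 at -0.79, on the other side of 0 from ID1 at 0.80, ID3 at 0.66 and BAMBI at 0.51.

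The genes whose levels across the 6 libraries were most like those of ID1 were REX1BD, CES2 and SLC25A15, with Pearson's r of 0.9959, 0.9945 and 0.9944 on log2 CPM. Those most like BMPR2 were LINC00682, RAP1GAP2 and DERL2, each with an r of 0.9986. These values describe 6 libraries that fall in 2 groups, so that any gene with a group difference shares in them, and 144 genes had an r above 0.95 with ID1 and 667 with BMPR2.

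The fold changes were computed again under 15 other ways of processing or without single libraries. ID1, ID3, BAMBI and BMPR2 kept their direction and stayed past the threshold in all 15, and BMP7 in 13. SMAD7 stayed short of the threshold in all 15, with values from -0.25 to -0.03, as did ID2 and BMPR1A, whose values lay on both sides of 0.

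**Figure D4:**
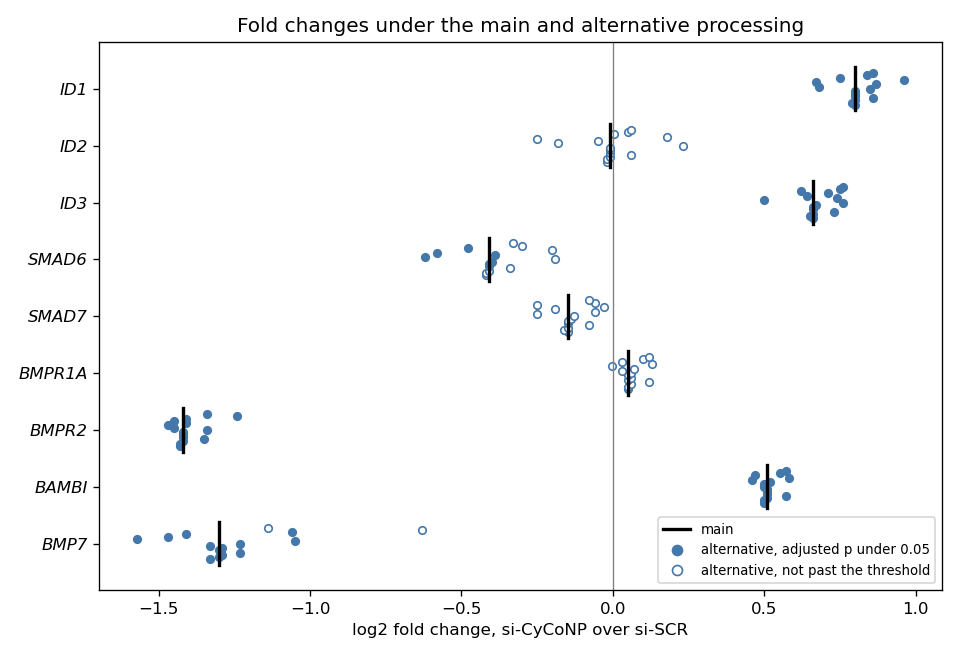
Log2 fold change of si-CyCoNP over si-SCR for the 9 tested genes in the main fit (black bars) and under 15 alternatives (circles, filled where the adjusted p is under 0.05), offset vertically only to part the points. BMPR2 stays between -1.47 and -1.24 and ID1 between 0.67 and 0.96, whereas ID2 spans -0.25 to 0.23 and SMAD6 is past the threshold in 6 of 15.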

How the data were processed

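SK-N-BE libraries were grouped by the sample titles (3 si-SCR, 3 si-CyCoNP). Per the submitters' processing notes and the methods, the authors trimmed reads with Trimmomatic 0.39 and cutadapt 3.2, removed ribosomal reads with Bowtie2 2.4.2, and aligned the rest to GRCh38 with STAR 2.7.7a. The deposited count table holds uniquely mapping fragments per annotated gene, so reads shared by near-identical copies are lost. The deposited FPKM values were made by the authors from these counts, gene length and library total, with no correction for composition, and implied 1 length per gene for each of the 22586 genes counted in 2 or more libraries. Total counts ranged from 3762009 to 4799407.

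Genes averaging 1 FPKM or more in a group were normalised with TMM, and the groups were compared by edgeR 4.0.16 (quasi-likelihood test, R 4.3.3), without covariates, with Benjamini-Hochberg adjustment over all 13966 genes. A gene was past the threshold at an adjusted p under 0.05. Standard errors were derived from the log2 fold change and the F statistic of this fit, and 95% intervals from these with a t quantile. The biological coefficient of variation of the fit was 8.57%. The script was tested on simulated data. Alternatives used DESeq2 1.42.0, its size factors, upper quartile scaling, library totals, edgeR's default filter or none, a replicate block, each library left out, and limma 3.58.1 on log2(FPKM + 1) and log2(FPKM + 0.1).

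The 10 genes and all lists were chosen with earlier results of these data known. Named were the 10 genes, LINC02381, the BMP SMADs and E proteins, each list's called genes (log2 fold change also beyond 1), the 2 genes per list and direction with the smallest p whose groups did not overlap, and the 3 genes most like ID1 and BMPR2 by Pearson's r of log2 CPM (prior count 2). ACVR1, ACVR2A, GATA3, HAND1, VIM, BMP8B and the markers and antagonists with no count were named after their values were seen. Gene positions are from GENCODE on GRCh38. A few genes that the rule names are not reported here. No tested group held more than 3 libraries, so no outlier test was made.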

Additional observations from a re-analysis of the deposited data

How the results depend on the processing

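The counts of genes past the threshold moved beyond 1.5 times only in the following cases. With log2(FPKM + 1) or log2(FPKM + 0.1) as the scale, limma left 1 of the genes lower and called, BMPR2, in place of 2, and 4 pathway genes higher in place of 7, with 6 and 7 lower in place of 13. Leaving out 1 library gave 4 to 7 pathway genes higher, the lowest without si-CyCoNP replicate 2. The cause was not tested. DESeq2 size factors, upper quartile scaling and the filters moved none of these counts that far.

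The log2 fold change of ID2, not past the threshold in any setting, changed sign to 0.06 with library totals, 0.05 and 0.06 with limma on these scales, and ranged from -0.25 to 0.23 when 1 library was left out. That of BMPR1A ranged from -0.0029 to 0.13 when 1 library was left out. SMAD5 was at 0.02 with library totals and with limma on both scales, and ACVR2A ranged from -0.36 to 0.04 when 1 library was left out. Scaling by library totals shifted the median log2 fold change over all genes by 0.067. SMAD6 passed the threshold without a filter (-0.41, adjusted p = 0.00249) and without si-SCR replicate 2 or 3 or si-CyCoNP replicate 1 or 3 (-0.62 to -0.39, adjusted p = 0.00197 to 0.0480). Of 37 further genes past the threshold, those the rule named and ACVR1, 23 stayed past it in all alternatives in which they were tested, and none of the 37 changed direction.

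Replicate numbers are shared by the groups, but nothing in the labels says what they mark. Same-numbered libraries correlated at 0.0907, 0.0727 and 0.108 in their deviations from the group means, and each library correlated best with its own number, which is a hint from the data and not the design. With a replicate block SMAD6 had a log2 fold change of -0.40 (adjusted p = 0.00028) and 3 of the genes were higher and 3 lower at the threshold. Depth limits what can be said of ID4, at 5 to 16 counts, and of BMP7, at 9 to 43.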
